A study of Mus musculus with 12 samples.

Results

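The effect of viral transketolase on each gene was set against the effect of ribose on the same gene in mouse dorsal root ganglia after spinal cord injury. A gene entered when both deposited tables listed it and its mean reached 1 FPKM in each, FPKM being fragments counted per length of transcript and per depth of library. This gave 12853 of the 21753 genes listed in either table, of which 11990 were protein-coding and 6 had no symbol in the annotation. The effect of transketolase was the mean log2(FPKM + 1) of AAV-TKT less that of AAV-GFP, and the effect of ribose was that of Ribose less Vehicle. The difference of effects was the first less the second, so a positive difference marks a gene that stood higher, relative to its own controls, with transketolase than with ribose. All libraries came from sciatic (L4-6) ganglia of C57BL/6J mice aged 8 weeks, 72 h after the injury. For the AAV groups, an adeno-associated virus encoding TKT or the fluorescent protein GFP had been delivered through the sciatic nerve 4 weeks before, and in the ribose experiment the mice had received 10% ribose or its vehicle without virus. There were 3 libraries per group and 12 in all. The experiments shared no library, so their effects were measured independently. The labels call the tissue neurons and say nothing of how neurons were separated from glia, and nothing in them says that the 3 libraries of a group came from separate animals, so a p-value here reflects the spread among libraries, which may be technical.

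The pentose phosphate pathway branches from glycolysis at glucose 6-phosphate. Its oxidative arm, from glucose 6-phosphate dehydrogenase to phosphogluconate dehydrogenase, yields NADPH for reductive synthesis and for glutathione, and its non-oxidative arm interconverts sugars so that carbon can return to glycolysis or leave as ribose 5-phosphate for nucleotides. Transketolase, encoded by Tkt, moves carbon units within the non-oxidative arm, while added ribose enters the same pool after ribokinase phosphorylates it. Sensory neurons of the ganglion extend a peripheral branch that can regrow and a central branch in the cord that usually does not.

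The FPKM of a library summed to between 413635 and 456084 in the AAV experiment and to between 510551 and 551370 in the ribose experiment. Total read numbers were not given. In the ribose table the lowest values are spaced in steps, which placed the relative depth of the Vehicle libraries at 0.998, 1.24 and 1.34 and that of the Ribose libraries at 0.761, 0.903 and 0.878. The shared genes were at 0 in at most 0.871% of cases in any library. Libraries correlated at 0.972 to 0.985 within the AAV table and at 0.924 to 0.966 within the ribose table. The median standard error of an effect was 0.11 for transketolase and 0.21 for ribose, so the ribose side set most of the error of the difference. Ribose replicate 2 stood apart in several cell type lists, and list medians whose sign turns without it are given both ways.

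Over all genes the effects of transketolase and ribose showed little relation. Pearson's r between them across the 12853 genes was 0.021 and Spearman's rho was 0.011, a description only, since genes are not independent replicates. The effect was positive in 6963 genes with transketolase (54.2%) and in 5416 with ribose (42.1%). Both effects were positive in 2852 genes (22.2%) and both negative in 3326 (25.9%). A positive effect of transketolase met a negative effect of ribose in 4111 genes (32%), and the reverse held in 2564 (19.9%). The median effect was 0.02 for transketolase and -0.03 for ribose, and the median difference was 0.05, a shift that became -0.03 when every library was scaled to the same total.

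In limma's test of the difference, adjusted by Benjamini-Hochberg over all shared genes with a threshold of 0.05, 1 gene passed (0.00778%), Tkt itself, and 0 genes passed in the lower direction. At an unadjusted p under 0.05 there were 543 genes higher (4.22%) and 337 lower (2.62%), 880 in all (6.85%). Within the experiments, limma called 3 genes for transketolase (0.0233%), which were Tkt and the neutrophil and myeloid genes Ngp and Lyz2, and 0 for ribose (0%). The calls of Ngp and Lyz2 (both adjusted p = 0.0465) were both lost with no minimum FPKM, with median-of-ratios scaling, quantile normalization or a replicate block, and without AAV-GFP replicate 1 or 3 or any AAV-TKT replicate. That of Ngp was also lost with a robust prior. At an unadjusted p under 0.05 there were 1353 genes for transketolase (10.5%) and 504 for ribose (3.92%). The lowest adjusted p for ribose was 0.0772. Apart from those calls, every gene described here is therefore given by its values, and no change is claimed for it.

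**Figure D1:**
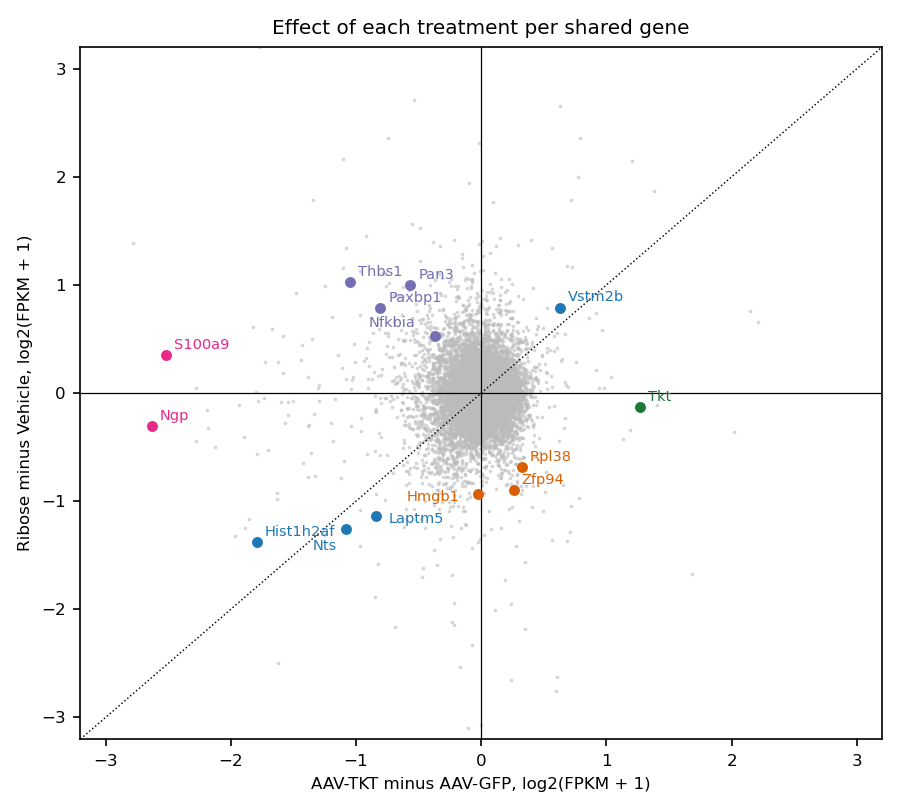
Effect of transketolase (horizontal, AAV-TKT minus AAV-GFP) against effect of ribose (vertical, Ribose minus Vehicle) for each shared gene, both on the log2(FPKM + 1) scale. Grey points are the 12853 shared genes, of which 7 lie outside the axes; genes on the dotted diagonal have equal effects, and Tkt lies far to the right of it while the neutrophil genes Ngp and S100a9 lie far to the left.

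Tkt lies on chromosome 14 at 30548359 to 30574720 on the plus strand (GRCm38). It measured 106, 101.7 and 98.1 FPKM in AAV-GFP and 223, 259 and 262 FPKM in AAV-TKT. In the ribose experiment it measured 112, 126 and 116 FPKM in Vehicle and 106, 112 and 105.02 FPKM in Ribose. Every AAV-TKT library stood above every AAV-GFP library by a wide margin, while every Ribose library stood narrowly below every Vehicle library. The effect was 1.27 for transketolase and -0.13 for ribose, and the difference was 1.40 with a standard error of 0.12 and a 95% interval of 1.14 to 1.66 (limma adjusted p = 0.00114). Exact permutation of the labels within each experiment gave a two-sided p of 0.005, the smallest that the 400 relabellings allow. The FPKM of Tkt counts its transcript whatever its origin, viral or endogenous.

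The other measured genes of the pathway gave small differences, none past the threshold. In the non-oxidative arm, Taldo1 (transaldolase) measured 69.9 ± 4.62 FPKM in AAV-GFP, 76.7 ± 6.61 in AAV-TKT, 82.8 ± 6.67 in Vehicle and 72.5 ± 6.08 in Ribose (SD, n = 3). Its libraries overlapped in both experiments, and its difference was 0.32 (standard error 0.14, limma adjusted p = 0.712). Shpk, which makes sedoheptulose 7-phosphate, had a difference of 0.41, and Rpe, the ribulose phosphate epimerase, one of -0.20. In the oxidative arm, the lactonase Pgls had a difference of 0.22. The remaining 7 genes (G6pdx, Pgd and H6pd of the oxidative arm, Rpia, the ribokinase Rbks, and the ribose phosphate kinases Prps1 and Prps2) had differences between -0.08 and 0.16. Of the 12 measured genes, 9 had a difference above 0, where 58.6% of all shared genes did. That count includes Tkt, whose positive difference is part of the design because the virus carries it.

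Several genes with a large positive difference had near-identical copies that stood the other way in the ribose table. Copies were sought as genes whose transcripts share words of 31 bases with the named gene, and 11 of 47 named genes had a listed gene sharing at least 20% of the words of either. Hmgb1, an abundant chromatin protein that also acts as a danger signal, measured 68.7, 65.1 and 65.5 FPKM in AAV-GFP and 61.9, 69.7 and 63.8 FPKM in AAV-TKT. It measured 50.9, 56.1 and 54.7 FPKM in Vehicle and 25.1, 33.1 and 25.4 FPKM in Ribose. All Ribose libraries lay below all Vehicle libraries while the AAV groups overlapped, and the difference was 0.91 (limma adjusted p = 0.176). Its processed pseudogene Gm15387 has 96.6% of its words in Hmgb1. Gm15387 was listed at 0 in all Vehicle libraries and at 24.2, 20.2 and 30.7 FPKM in Ribose. The FPKM of gene and pseudogene added up to 53.9 ± 2.72 in Vehicle and 52.9 ± 3.43 in Ribose (SD, n = 3), and with the copy added the difference was -0.001 (limma adjusted p = 0.999, against 0.0181 to 0.999 over all settings tried).

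Rpl38, a protein of the large cytoplasmic ribosomal subunit, had such a copy too. It measured 143, 114 and 143 FPKM in AAV-GFP, 184, 158 and 157 FPKM in AAV-TKT, 153, 141 and 170 FPKM in Vehicle and 89.7, 98.0 and 99.7 FPKM in Ribose. Its libraries did not overlap in either experiment, higher with transketolase and lower with ribose, and the difference was 1.01 (limma adjusted p = 0.176). All words of the pseudogene Rpl38-ps2 lie in Rpl38. Rpl38-ps2 measured 5.29, 1.14 and 0 FPKM in Vehicle and 17.0, 40.7 and 44.9 FPKM in Ribose. With it added, the difference was 0.60. For Rps20, a protein of the small subunit, the copy Gm4332 measured 39.4 ± 8.56 FPKM in Vehicle and 81.7 ± 10.0 FPKM in Ribose (SD, n = 3), and adding it took the difference from 0.90 to 0.13. Gm14288, a predicted gene of a zinc finger cluster, was listed at 0 in all Ribose libraries and at 11.7, 4.86 and 7.49 FPKM in Vehicle, while Gm14440, all of whose words lie in Gm14288, measured 20.5 ± 1.56 FPKM in Ribose and 11.7 ± 5.30 in Vehicle. With that copy added, the difference for Gm14288 was -0.10. The words shared with the copy were 11.9% of those of Hmgb1, 31.6% for Rpl38, 6.98% for Rps20 and 97.5% for Gm14288. FPKM is per length, so where gene and copy differ in length their summed FPKM does not add up reads. How the authors' counting divides reads between a gene and its copy is not given in the sources used here, so the level of each of these 4 genes on its own is uncertain.

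**Figure D2:**
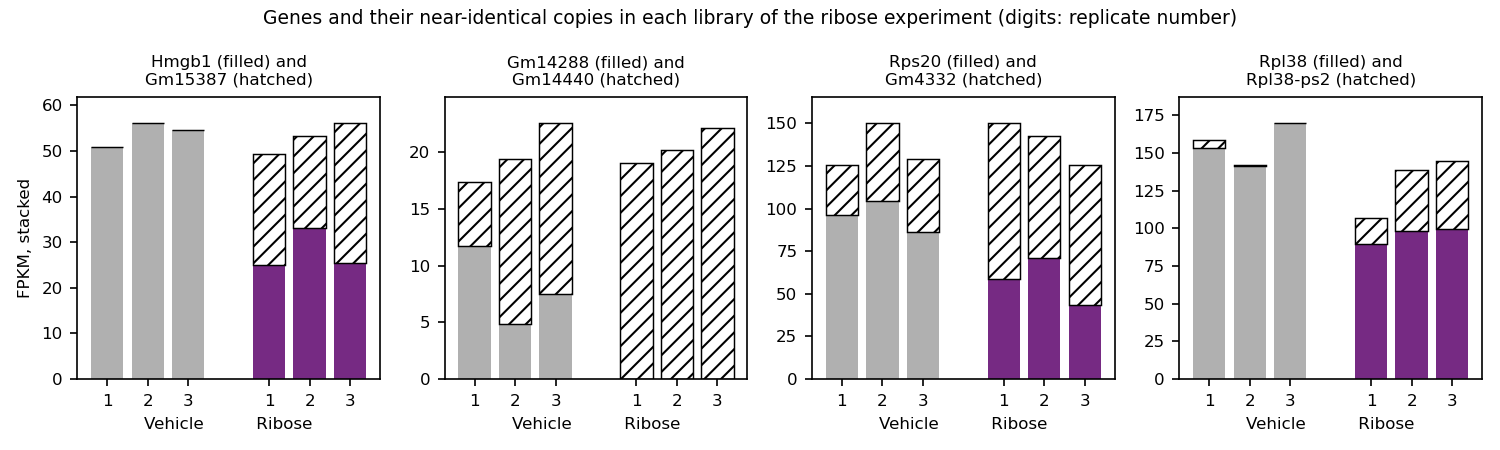
FPKM of 4 genes (filled bars, grey in Vehicle and purple in Ribose) with the FPKM of their near-identical copies stacked on top (hatched), in each library of the ribose experiment. The copies are larger in the Ribose libraries. For Hmgb1 and Gm14288 the stacked heights in Ribose lie within the range of those in Vehicle or within 2 FPKM of it. FPKM is per length, so a stacked height is not a pool of reads where gene and copy differ in length.

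The other genes at the top of the list had no listed copy, apart from Rsph3a, whose paralog shares 58.5% of its words. Zfp94, a zinc finger protein, measured 3.00, 2.62 and 2.55 FPKM in AAV-GFP, 3.11, 3.57 and 3.68 FPKM in AAV-TKT, 3.37, 3.65 and 4.08 FPKM in Vehicle and 1.64, 1.66 and 1.29 FPKM in Ribose. All Ribose libraries lay well under all Vehicle libraries and all AAV-TKT libraries lay above all AAV-GFP libraries, for a difference of 1.15 (limma adjusted p = 0.176). Dhrs7, a short-chain dehydrogenase, measured 22.4, 22.6 and 20.7 FPKM in AAV-GFP, 23.9, 24.0 and 23.5 FPKM in AAV-TKT, 21.5, 20.1 and 21.7 FPKM in Vehicle and 15.5, 14.2 and 14 FPKM in Ribose. Its groups were apart in both experiments, narrowly so with the virus. Its difference was 0.62. Nhp2, a core protein of the particles that guide pseudouridylation of ribosomal RNA and of telomerase, measured 20.04, 19.7 and 18.9 FPKM in AAV-TKT against 17.4, 15.8 and 15.8 in AAV-GFP, and 14.8, 13.5 and 14.1 FPKM in Ribose against 24.0, 17.6 and 20.8 in Vehicle. Neither pair of groups overlapped, and the difference was 0.76. Mettl25 and Mettl26, which belong to the methyltransferase-like proteins, had differences of 1.16 and 0.79. Rsph3a, a radial spoke protein of cilia, had a difference of 1.15, and its paralog Rsph3b measured 17.0 FPKM in Vehicle and 15.9 FPKM in Ribose. In each of these 6 genes the larger share of the difference came from low Ribose libraries.

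At the opposite end stood genes that were lower with transketolase and higher with ribose. Thbs1, the secreted matrix glycoprotein thrombospondin 1, measured 2.59, 1.79 and 4.01 FPKM in AAV-GFP and 0.775, 0.799 and 0.782 FPKM in AAV-TKT. It measured 1.45, 2.67 and 0.977 FPKM in Vehicle and 4.58, 3.82 and 4.60 FPKM in Ribose. The groups did not overlap in either experiment, the difference was -2.08 with a standard error of 0.35, and the limma adjusted p was 0.176 (0.0331 to 0.598 over the settings tried, the lowest without Vehicle replicate 2 and Ribose replicate 2). Thbs1 was also on the list of fibroblast and matrix markers described further on.

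Nfkbia encodes IkappaB alpha, which holds NF-kappaB in the cytoplasm and is itself transcribed when NF-kappaB is active. It measured 9.00, 9.12 and 8.73 FPKM in AAV-GFP and 5.62, 7.54 and 7.13 FPKM in AAV-TKT. It measured 8.00, 8.76 and 8.74 FPKM in Vehicle and 12.4, 12.3 and 13.4 FPKM in Ribose. All AAV-TKT libraries lay under their controls and all Ribose libraries above theirs, and the difference was -0.90 (standard error 0.16, limma adjusted p = 0.212). Because members of the NF-kappaB family bind decameric sites in the promoter of this gene, its upstream bases are shown. Capitals mark matches on either strand to GGNNTTTCC, which is shorter than a decamer. They are the 250 bases before the start of Nfkbia on the minus strand, chr12:55492648-55492897 (RefSeq, GRCm38.p6), written 5′ to 3′.
Nfkbia: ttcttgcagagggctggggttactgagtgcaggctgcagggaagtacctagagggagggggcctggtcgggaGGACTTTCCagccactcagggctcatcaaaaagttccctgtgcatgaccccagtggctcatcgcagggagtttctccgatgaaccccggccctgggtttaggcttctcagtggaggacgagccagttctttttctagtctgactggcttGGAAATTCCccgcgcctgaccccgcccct
The first match starts 178 bases and the second 29 bases before the start of transcription, the second reads on the reverse strand, and no other match was found. Of 32851 promoters of the same table, 4.93% hold GGNNTTTCC within the same 250 bases. A match is a run of letters and not a measured site.

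Of 8 measured genes on the list of cytokines and NF-kappaB targets, which holds Nfkbia itself, the effect of transketolase was negative in all 8 and that of ribose in 5. The medians were -0.29 and -0.10, and the second was 0.01 without Ribose replicate 2. Tnfaip3, the deubiquitinase A20 that ends NF-kappaB signalling, had negative effects in both, -0.62 with transketolase and -0.29 with ribose, with no overlap between groups in either experiment. The median difference of the list was -0.37 where all shared genes had 0.05.

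Other genes with a large negative difference were high in Ribose. Sp3, a transcription factor of GC boxes, measured 21.8, 21.8 and 24.9 FPKM in Ribose against 12.9, 14.7 and 13.0 in Vehicle, and 10.9 to 12.7 FPKM in AAV-TKT against 12.0 to 14.6 in AAV-GFP. The Ribose libraries were all well above Vehicle while the AAV groups overlapped, and the difference was -0.90 (limma adjusted p = 0.176). Pan3, a subunit of a deadenylase that shortens poly(A) tails, measured 5.31, 7.13 and 6.31 FPKM in AAV-TKT against 7.88, 8.15 and 13.9 in AAV-GFP, and 16.1, 27.3 and 23.8 FPKM in Ribose against 13.6, 8.50 and 9.84 in Vehicle. Neither pair overlapped, and the difference was -1.56 (limma adjusted p = 0.371). The effect of ribose was 0.64 and the difference -0.84 for the nuclear exonuclease Xrn2. They were 0.97 and -1.05 for Thoc2 of the mRNA export complex THO, 1.05 and -1.42 for Ints13 of the Integrator complex, and 0.66 and -0.95 for the homeodomain factor Pbx3. Pan3 spans 14955 exonic bases in the annotation, where the median of all shared genes is 4448, and gene length moved with the difference over all genes.

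Hspa1b and Hist1h2bn differed through the AAV experiment. The inducible heat shock protein Hspa1b measured 36.8, 27.4 and 43.3 FPKM in AAV-GFP and 19.8, 18.5 and 18.7 FPKM in AAV-TKT. It measured 19.9, 18.4 and 16.4 FPKM in Vehicle and 22.2, 21.5 and 19.5 FPKM in Ribose. The AAV groups were apart and the ribose groups overlapped, and the difference was -1.06. Hist1h2bn, a replication-dependent histone gene, had a difference of -2.01. Both share at least 20% of their words with paralogs, Hspa1b with Hspa1a and Hist1h2bn with 14 listed histone genes, so their own levels are uncertain.

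**Figure D3:**
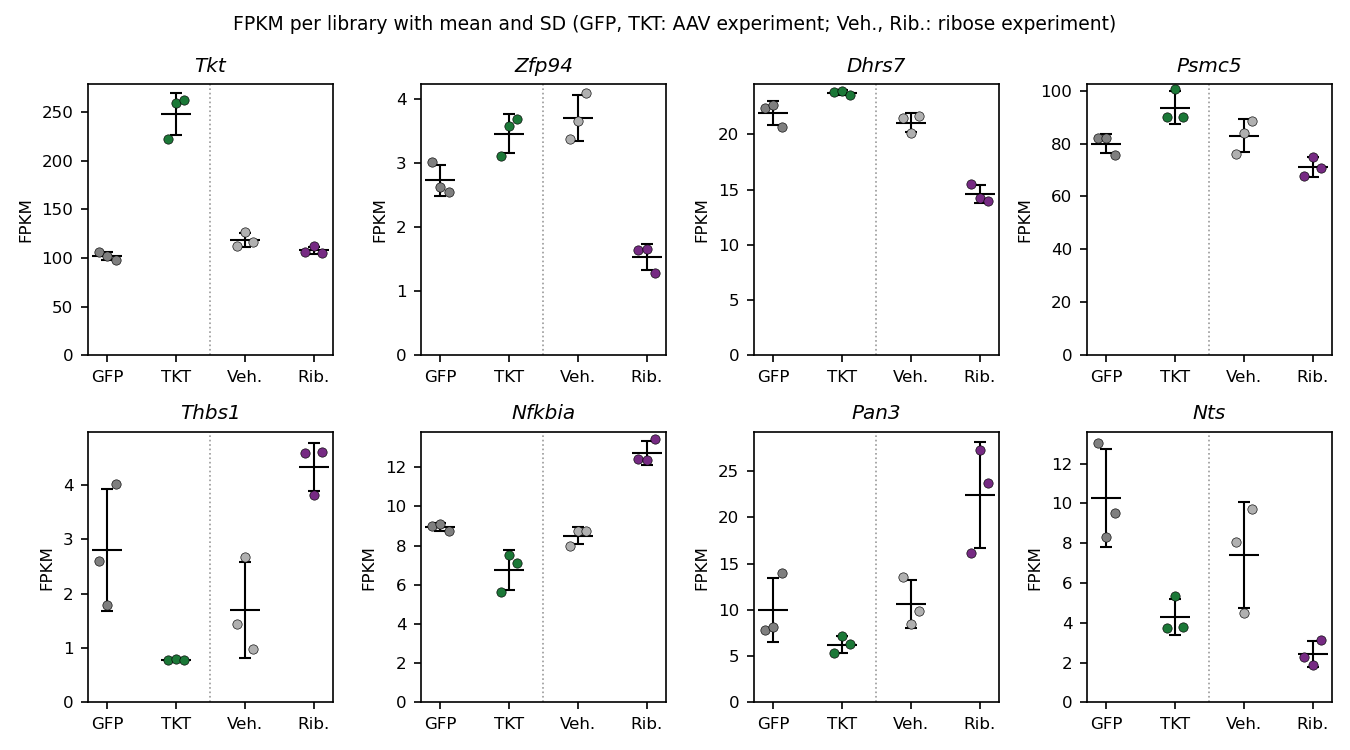
FPKM of 8 genes in every library (points), with the mean and SD of each group of 3 (bars) and a dotted line between the experiments. Tkt is high in AAV-TKT alone, Zfp94 and Dhrs7 are low in Ribose, Thbs1, Nfkbia and Pan3 are low in AAV-TKT and high in Ribose, and Nts is low in both treated groups.

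Genes whose libraries did not overlap in either experiment were sorted by direction. Of the shared genes, 98 (0.762%) were higher with transketolase and lower with ribose, and 48 (0.373%) were the reverse, while 35 were higher in both (0.272%) and 45 lower in both (0.35%), 226 genes in all (1.76%). In single experiments the shares were 11.4% higher and 7.05% lower with transketolase (18.4% together) and 3.38% higher and 5.68% lower with ribose (9.06% together). The share apart in both lies near the product of these single shares. The shares in the same direction lie below their products and the opposed shares above theirs. Being apart in both experiments therefore does not by itself mark a gene as a shared response. The median exonic length was 3390.5 bases for genes higher with transketolase and lower with ribose, 5630 for the reverse, 4525 for genes higher in both and 4415 for genes lower in both, against 4448 for all shared genes.

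Among the 98 genes higher with transketolase and lower with ribose, the largest effects on both sides included enzymes and membrane proteins. Tmem223, a mitochondrial membrane protein, measured 22.4, 26.8 and 27.0 FPKM in AAV-TKT against 20.4, 20.5 and 20.3 in AAV-GFP, and 23.8, 16.0 and 15.4 FPKM in Ribose against 30.5, 26.4 and 27.3 in Vehicle. The AAV-GFP libraries barely varied, and the difference was 0.90. Nme1, a nucleoside diphosphate kinase that maintains nucleoside triphosphates, measured 86.2, 78.5 and 77.2 FPKM in AAV-TKT against 75.2, 61.9 and 58.5 in AAV-GFP, and 66.4, 73.5 and 77.4 FPKM in Ribose against 90.5, 80.6 and 87.7 in Vehicle. Its difference was 0.56, and 1 listed gene shares at least 20% of the words of either, so its own level is uncertain. Fam213b, a prostaglandin F synthase, had a difference of 1.01, the protease inhibitor Serpinb1b 0.81, the complement lectin pathway protease Masp1 0.79 and the cytokine receptor subunit Crlf2 0.61.

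The 48 genes of the reverse pattern included regulators of transcription and splicing. Klf3, a Krüppel-like repressor, measured 4.25, 5.19 and 5.14 FPKM in AAV-TKT against 6.60, 7.27 and 6.42 in AAV-GFP, and 7.60, 6.96 and 10.7 FPKM in Ribose against 4.53, 6.72 and 3.82 in Vehicle. The difference was -1.06. Clk2, a kinase of splicing factors, measured 3.31, 3.42 and 3.59 FPKM in AAV-TKT against 4.60, 4.44 and 5.16 in AAV-GFP, and 9.22, 7.33 and 5.60 FPKM in Ribose against 4.68, 5.34 and 3.49 in Vehicle. The Ribose libraries spread widely but stayed above Vehicle, and the difference was -0.97. Atad2b, a bromodomain ATPase, had a difference of -1.16 and Paxbp1, which binds Pax transcription factors, one of -1.59.

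The 35 genes higher in both experiments had modest effects, and the smaller of the 2 effects had a median of 0.19 over them. Vstm2b, a membrane protein with an immunoglobulin domain, measured 6.82, 5.38 and 6.27 FPKM in AAV-TKT against 3.45, 4.70 and 2.89 in AAV-GFP, and 3.78, 3.62 and 3.66 FPKM in Ribose against 2.57, 1.28 and 1.45 in Vehicle. The effects were 0.63 and 0.79. H1fx, a linker histone, measured 20.7, 22.6 and 19.2 FPKM in AAV-TKT against 14.9, 13.3 and 14.2 in AAV-GFP, and 18.5, 15.9 and 16.1 FPKM in Ribose against 10.9, 13.99 and 13.4 in Vehicle, with effects of 0.53 and 0.38. Sstr1, a somatostatin receptor that inhibits neuronal firing, had effects of 0.58 and 0.52 from levels between 0.640 and 3.24 FPKM. Carns1, which makes the antioxidant dipeptide carnosine, had effects of 0.31 and 0.50, the chromatin reader L3mbtl4 0.35 and 0.41, the acetyltransferase subunit Mrgbp 0.33 and 0.47, the sorting complex subunit Vps37d 0.35 and 0.49, and Whrn, a scaffold of sensory cells, 0.33 and 0.47.

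The 45 genes lower in both were led by a neuropeptide, a histone and a leukocyte gene. Nts, the precursor of neurotensin, measured 13.0, 8.30 and 9.50 FPKM in AAV-GFP and 3.74, 5.33 and 3.81 FPKM in AAV-TKT. It measured 8.07, 4.47 and 9.70 FPKM in Vehicle and 2.29, 1.86 and 3.13 FPKM in Ribose. Every treated library lay under every control library of its experiment, with effects of -1.08 and -1.26. Laptm5, a lysosomal membrane protein of blood cells, measured 1.73, 2.32 and 1.06 FPKM in AAV-TKT against 3.15, 3.91 and 4.26 in AAV-GFP, and 0.268, 0.343 and 0.759 FPKM in Ribose against 2.38, 2.55 and 1.67 in Vehicle. Its effects were -0.84 and -1.14. The myelin protein gene Mal had effects of -0.48 and -0.75, the GPI-anchored receptor modulator Lypd1 -0.48 and -0.78, the ERK phosphatase Dusp6 -0.46 and -0.45, the mitochondrial translocator protein Tspo -0.46 and -0.38, the membrane protein Ginm1 -0.34 and -0.60, and the histone gene Hist1h2af, which shares words with 18 listed genes, -1.79 and -1.38. Lypd1 likewise shares words with 1 listed gene, so its own level is uncertain. In bulk tissue, fewer cells of a type and less RNA per cell cannot be told apart.

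Among the gene lists, effects of opposite sign were commonest in the nuclear genes of complex I of the respiratory chain. Of 37 measured subunits of complex I, the enzyme that passes electrons from NADH to ubiquinone, 33 had a positive effect of transketolase and a negative effect of ribose, where 32% of all shared genes did. The median effect was 0.13 with transketolase and -0.14 with ribose, and the difference was above 0 in 36. Ndufs5 measured 71.0, 85.7 and 89.6 FPKM in Vehicle and 62.1, 60.5 and 57.7 FPKM in Ribose, against 82.0, 65.7 and 68.3 in AAV-GFP and 67.8, 94.4 and 84.6 in AAV-TKT. The ribose groups did not overlap and the AAV groups did, for a difference of 0.62. Ndufa3 did not overlap in either experiment and had a difference of 0.63, and Ndufb7 one of 0.59. Of 34 subunits of complexes III to V, 25 had that combination, with medians of 0.14 and -0.18. Cox6a1, a subunit of cytochrome oxidase, measured 306, 262 and 250 FPKM in AAV-TKT against 224, 201 and 209 in AAV-GFP, and 194, 172 and 155 FPKM in Ribose against 184, 236 and 225 in Vehicle. The AAV groups were apart and the ribose groups overlapped, for a difference of 0.67 (limma adjusted p = 0.484). Atp5k and Atp5g1 of the ATP synthase had differences of 0.55 and 0.44. At an unadjusted p under 0.05, 10 of the 37 and 11 of the 34 genes were higher (4.22% of all shared genes) and 0 of each were lower (2.62%), and 0 of them passed limma's adjusted threshold. Groups apart in both experiments and in opposite directions were found in 1 of the 37 and 0 of the 34, against 146 of the 12853 shared genes. The opposition therefore rests on the signs of small effects.

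Library by library, the list median of complex I relative to its own control mean was 0.10, -0.05 and -0.06 in AAV-GFP and 0.06, 0.23 and 0.16 in AAV-TKT. It was -0.05, -0.10 and 0.14 in Vehicle and -0.14, -0.14 and -0.13 in Ribose. The Ribose libraries agreed closely and lay below every Vehicle library, while AAV-TKT replicate 1 lay below AAV-GFP replicate 1. The ribose median was -0.05 without Vehicle replicate 3. The list difference of 0.26 for complex I ranged from 0.14 to 0.33, and that of 0.30 for complexes III to V from 0.17 to 0.37, over all settings tried, which include each library left out.

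The proteasome showed the same combination, and the ribosomes did so less uniformly. Of 31 proteasome subunits, 24 had a positive effect of transketolase and a negative one of ribose, with medians of 0.13 and -0.10. Psmc5, an ATPase of the regulatory particle, measured 89.9, 100.7 and 90.1 FPKM in AAV-TKT against 82.1, 82.1 and 75.7 in AAV-GFP, and 67.7, 75.1 and 70.8 FPKM in Ribose against 76.2, 84.1 and 88.5 in Vehicle. Its difference was 0.44, with no overlap in either experiment, and that of the core subunit Psmb4 was 0.43, likewise without overlap. Of 75 proteins of the mitochondrial ribosome, 40 had the combination and 64 a difference above 0, with medians of 0.08 and -0.11, and Mrpl36 had a difference of 0.73. Of 80 cytoplasmic ribosomal proteins, 47 had the combination, 26 were negative in both, and 71 had a difference above 0. Their median effect was -0.16 with ribose and 0.04 with transketolase, and the latter was -0.03 with libraries scaled to equal totals, -0.02 after quantile normalization, -0.002 without AAV-GFP replicate 2 and -0.01 without AAV-TKT replicate 2. Rps27l had a difference of 0.91. With listed copies added, which touched 38 of the 80 genes, the median difference of the list was 0.21, the same as without.

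Length moved with these values. Over all shared genes the median difference was 0.12 in the shortest of 4 equal bins by exonic length, then 0.08, 0.04 and -0.00 in the longest. The median effect of ribose ran from -0.07 to 0.00 and that of transketolase from 0.04 to -0.01 across the same bins. Single libraries were uneven in this. Relative to the control mean, the longest bin less the shortest was 0.02, -0.14 and -0.05 in AAV-TKT and -0.05 to 0.04 in AAV-GFP. It was 0.05, 0.06 and 0.105 in Ribose and -0.04 to 0.02 in Vehicle. The lists above hold short genes, with median lengths of 1569 bases for complex I, 1793.5 for complexes III to V, 1754.5 for cytoplasmic ribosomal proteins, 2172 for the mitochondrial ribosome and 2808 for the proteasome. With each library's trend on length removed, a setting chosen after the data were seen, the median difference was 0.26 for complex I, 0.24 for complexes III to V, 0.17 for the mitochondrial ribosome, 0.16 for the proteasome and 0.15 for cytoplasmic ribosomal proteins.

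Lists of central carbon metabolism also had positive median differences. All 20 citrate cycle genes had a difference above 0, with a median difference of 0.20 and medians of 0.12 and -0.08 for the effects. Citrate synthase, Cs, measured 118, 120 and 112 FPKM in AAV-TKT against 111, 115 and 100 in AAV-GFP, and 107, 121 and 112 FPKM in Ribose against 121, 122 and 128 in Vehicle. The Ribose libraries lay just under the Vehicle ones and the AAV groups overlapped, for a difference of 0.23. Of 23 glycolysis genes, 18 had a difference above 0, with medians of 0.11 and -0.05, the latter 0.01 after quantile normalization. Of 17 genes of fatty acid oxidation, 14 had a difference above 0, and Eci1 had one of 0.65. Autophagy and lysosome genes (22 of 25 above 0, median difference 0.13) and tubulins and microtubule regulators (25 of 26, 0.17) ran the same way. Becn1, which starts autophagosome formation, had a difference of 0.41, and Map6, which stabilizes microtubules, one of 0.44.

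**Figure D4:**
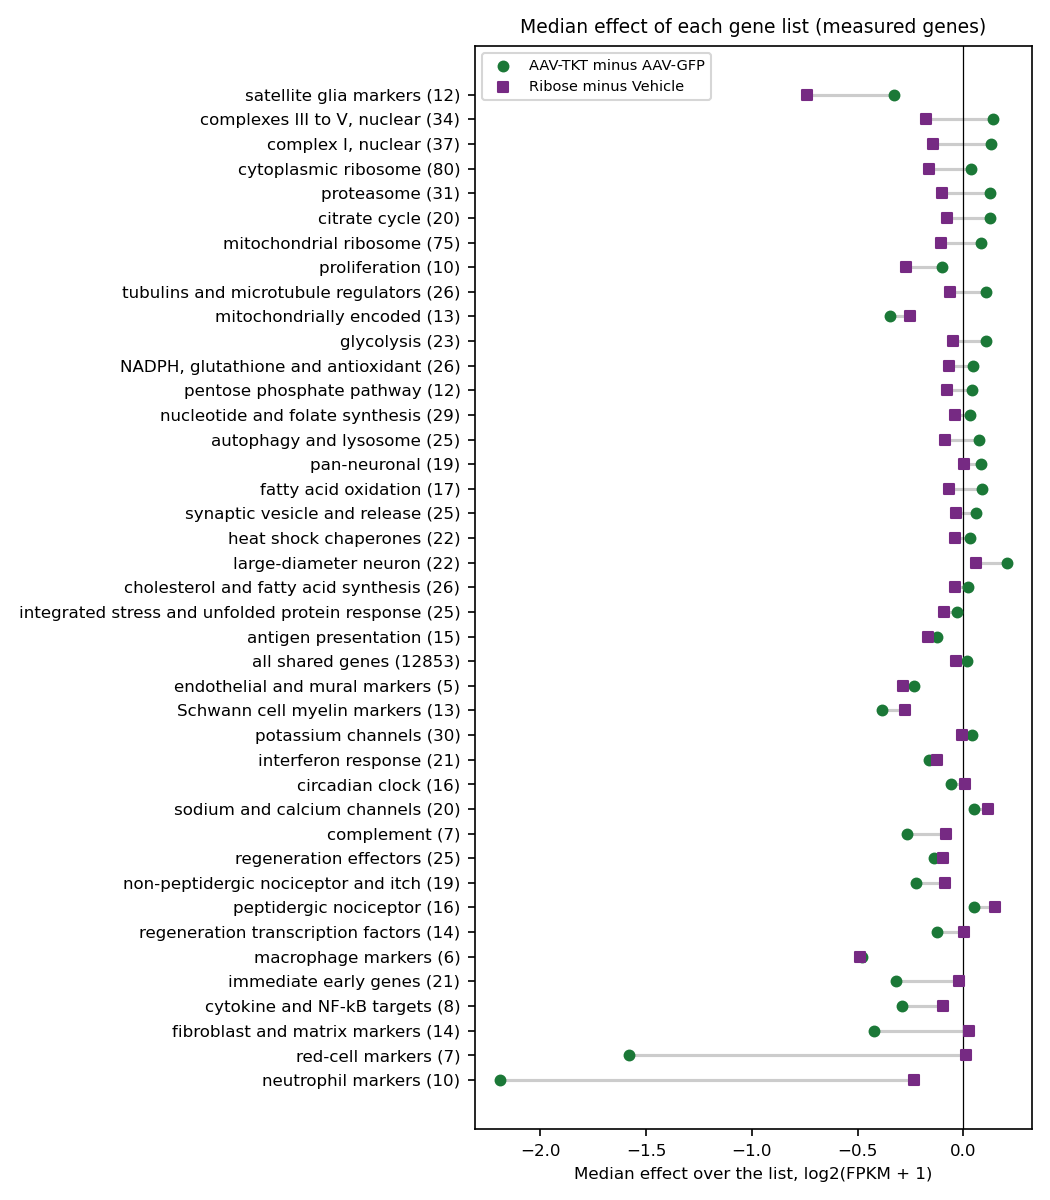
Median effect of transketolase (circles) and of ribose (squares) over each gene list on the log2(FPKM + 1) scale, with the number of measured genes in brackets and lists ordered by the median difference. Nuclear respiratory, ribosomal and proteasome lists have circles above 0 and squares below 0, satellite glia and Schwann cell markers have both below 0, and the neutrophil and red-cell lists have circles far below their squares.

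Neutrophil and red-cell genes had the most negative median differences of all lists, and here single libraries set the ribose side. The 10 measured neutrophil markers had a median effect of -2.19 with transketolase and -0.23 with ribose. In the AAV experiment the groups of all 10 were apart and lower (7.05% of all shared genes). In the ribose experiment those of 0 were apart in either direction (9.06%). S100a9, a calcium-binding protein abundant in neutrophils, measured 36.9, 21.6 and 66.8 FPKM in AAV-GFP and 4.63, 6.63 and 6.19 FPKM in AAV-TKT. It measured 2.99, 34.0 and 6.11 FPKM in Vehicle and 25.8, 2.10 and 23.7 FPKM in Ribose. Vehicle replicate 2 was the high control and Ribose replicate 2 the low treated library, and the difference was -2.87. Ltf, lactoferrin, had the same high and low libraries and a difference of -2.33. Without Vehicle replicate 2 the median effect of ribose on the list was 0.40, without Ribose replicate 2 it was 0.44, and without both it was 1.11, so its sign is not settled. The summed FPKM of the 10 genes was 105.4 to 278 in AAV-GFP, 22.2 to 34.1 in AAV-TKT, 32.3 to 179 in Vehicle and 13.5 to 124 in Ribose. The myeloid gene Lyz2 had a difference of -1.34.

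The 7 measured red-cell genes followed the same libraries. Their median effect was -1.58 with transketolase and 0.01 with ribose, and their summed FPKM was 152 to 511 in AAV-GFP, 113 to 132 in AAV-TKT, 119 to 251 in Vehicle and 64.0 to 270 in Ribose. Every AAV-TKT sum lay below every AAV-GFP sum, and the ribose groups overlapped widely. The ribose median was 0.69 without Ribose replicate 2 and -0.45 without Ribose replicate 3. The median difference was negative in every setting tried for the neutrophil list (-3.26 to -1.41) and the red-cell list (-2.86 to -0.67). What part blood cells left in the tissue have in other differences was not tested.

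Immediate early genes, which neurons and glia transcribe within minutes of a stimulus, had differences below 0 in 19 of 21, with a median effect of -0.32 for transketolase and -0.02 for ribose. Egr3, a zinc finger factor of this class, measured 3.93, 2.15 and 4.64 FPKM in AAV-GFP and 2.47, 1.18 and 1.13 FPKM in AAV-TKT. It measured 4.16, 1.71 and 3.65 FPKM in Vehicle and 7.40, 3.00 and 5.63 FPKM in Ribose. Groups overlapped in both experiments, and the difference was -1.41 (limma adjusted p = 0.669). Replicate 2 was the lowest library of each of the 4 groups for the list median, as it was for satellite glia. The list difference of -0.23 became -0.60 without Ribose replicate 2, -0.08 without Vehicle replicate 2 and -0.11 without AAV-TKT replicate 2. The effect of transketolase was below 0 in all 14 measured regeneration transcription factors, with a median of -0.13, and that of ribose in 7 of them. Of the regeneration effectors, Plaur, the urokinase receptor, had a difference of -0.72. Fibroblast and matrix markers had medians of -0.42 and 0.03, the second 0.51 without Ribose replicate 2 and -0.17 without Ribose replicate 3, and their difference of -0.40 ranged from -0.87 without Ribose replicate 2 to -0.14 without Ribose replicate 1.

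**Figure D5:**
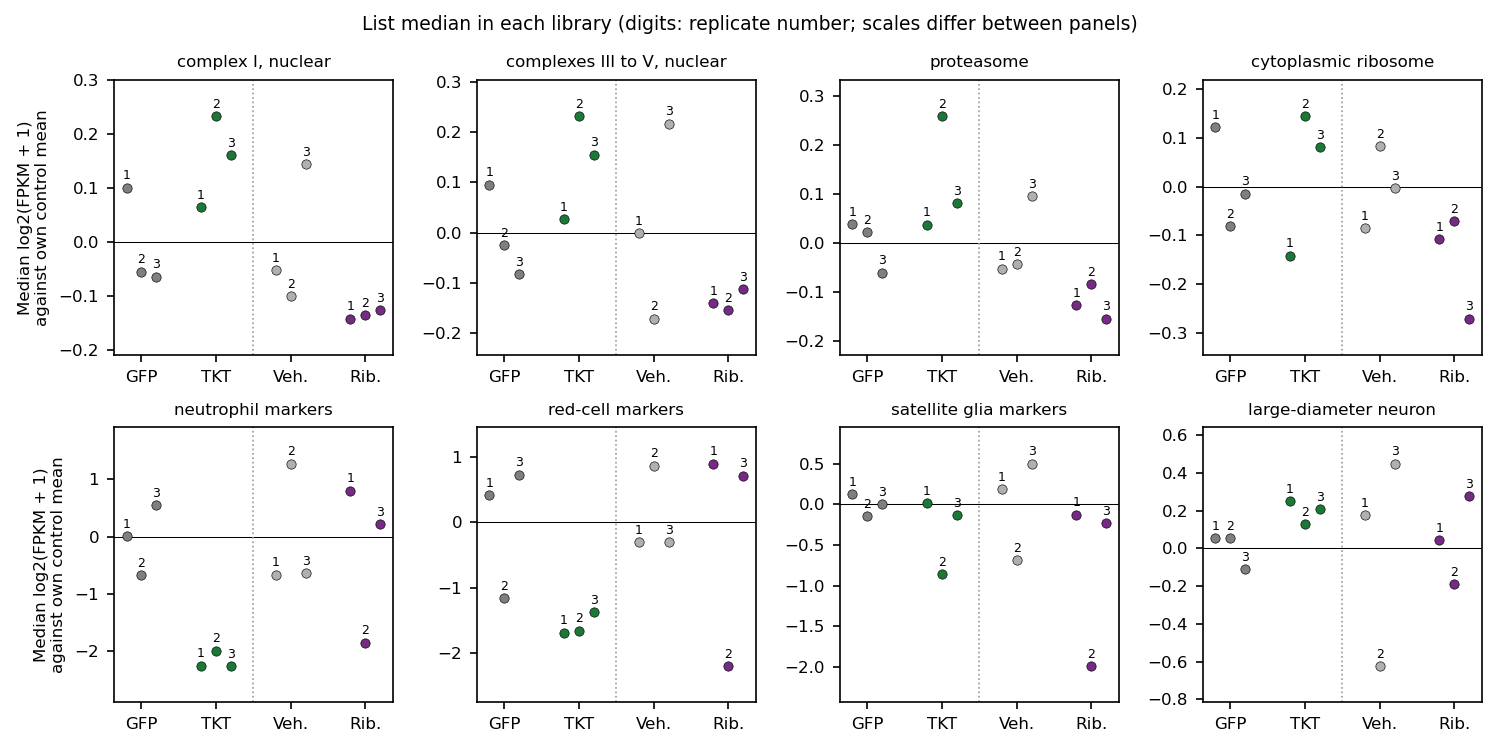
Median log2(FPKM + 1) of 8 gene lists in each library relative to the mean of its own control group, with digits for replicate numbers and a separate vertical scale in each panel. In complex I the Ribose libraries lie together below Vehicle, whereas in the neutrophil, red-cell and satellite glia panels Ribose replicate 2 lies far below the other Ribose libraries.

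Glial markers and mitochondrially encoded transcripts had negative medians in both experiments, and several of these values leaned on replicate 2. Of 12 satellite glia markers, cells that wrap the neuron bodies, 10 had negative effects in both experiments (25.9% of all shared genes did), with medians of -0.33 and -0.74. Apoe, a lipid carrier of these cells, measured 895, 698 and 790 FPKM in AAV-GFP and 802, 450 and 715 FPKM in AAV-TKT. It measured 694, 371 and 948 FPKM in Vehicle and 549, 115 and 471 FPKM in Ribose. Replicate 2 was the lowest in each of the 4 groups, the groups overlapped, and the effects were -0.31 and -1.01. Without AAV-TKT replicate 2 the median of the list with transketolase was -0.06, and without Ribose replicate 2 that with ribose was -0.16 and the list difference went from 0.42 to -0.09. Of 13 Schwann cell myelin markers, 11 were negative in both, with medians of -0.39 and -0.28. With transketolase, 6 of the 13 had groups apart and lower (7.05% of all shared genes). The list median was -0.60 to -0.20 in the AAV-TKT libraries and -0.11 to 0.08 in AAV-GFP, without overlap. Without Ribose replicate 2 the ribose median was -0.05 and the list difference went from 0.04 to -0.30.

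The 13 mitochondrially encoded genes ran opposite to the nuclear respiratory genes on the transketolase side. They were negative in both experiments in 11 of 13, with medians of -0.35 and -0.25, where nuclear subunits had 0.13 to 0.14 with transketolase. Their share of the FPKM total was 0.494% in AAV-TKT replicate 2 and 0.941% to 1.60% in the other AAV libraries, and 0.214% in Ribose replicate 2 and 0.375% to 0.750% in the other libraries of the ribose experiment. Without AAV-TKT replicate 2 the transketolase median was 0.03, and without Ribose replicate 2 the ribose median was 0.22, so 1 library set the sign in each experiment. Their median difference of 0.16 was -0.54 without Ribose replicate 2.

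Markers of neuron classes had small median differences. Of 22 genes of large-diameter neurons, which carry touch and limb position, 14 had positive effects in both (22.2% of all shared genes), with medians of 0.20 and 0.06. With transketolase, 10 of the 22 had groups apart and higher (11.4% of all shared genes) and 3 apart and lower (7.05%). With ribose, 1 was apart and higher (3.38%) and 0 apart and lower (5.68%). The ribose median was -0.21 without Vehicle replicate 2 and the list difference of 0.08 was -0.15 without Vehicle replicate 3 and -0.07 without Ribose replicate 2. Of 16 genes of peptidergic nociceptors, 9 were positive in both, with medians of 0.05 and 0.15, the first -0.02 with equal totals and the second -0.06 without Vehicle replicate 3. The list difference for these genes, -0.10, was 0.09 without Vehicle replicate 3 and 0.03 without Ribose replicate 2. Of 19 genes of non-peptidergic nociceptors and itch neurons, 18 had a negative effect of transketolase, 6 of them with groups apart (7.05% of all shared genes), and 12 were negative in both experiments. Their medians were -0.22 and -0.09, the second 0.32 without Vehicle replicate 2, and the list difference of -0.09 was 0.07 without Ribose replicate 2. Oprm1, the mu opioid receptor, was apart in the ribose experiment alone and had a difference of -0.38. Gng3, a neuronal G protein subunit, had a difference of 0.49. Of markers for the labelled cell type, pan-neuronal Uchl1 measured at least 1354 FPKM in every library, while glial and blood genes were present in all groups at the levels given above.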

How the data were processed

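Polyadenylated RNA was made into stranded libraries with a directional kit, per the labels' protocols. Per the submitters' processing notes, the genome build was GRCm38 and the tools were Trim Galore, FastQC and bcl2fastq 2.20. The sources used here do not give the aligner, the counter or the handling of reads that map to several genes. The values are FPKM, deposited by the authors as 1 table per experiment. The AAV table held 13178 genes, none with a mean under 1 FPKM, and the ribose experiment's 21650, of which 13804 reached that mean. Levels were never compared across tables.

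Values were analysed as log2(FPKM + 1), so a difference understates the change of a low gene. limma 3.58.1 (R 4.3.3) with an intensity trend was fitted to all 12 libraries with 1 mean per group for the difference of effects, and to the 6 libraries of an experiment for each effect, with Benjamini-Hochberg adjustment over the 12853 shared genes. Symbols, positions and union exonic lengths came from GENCODE M21. The fit was tested on 2 draws of simulated data with 200 genes changed among the 12853 and noise drawn separately for each gene. The changes were made in the AAV-TKT libraries only. The fit called 47% of the genes changed by 2-fold and 85.5% of those changed by 4-fold, with 16 false calls on average in 148.5. That false share is above the 0.05 that the threshold is meant to hold.

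The genes, lists and rules were chosen with earlier results of these data known. Named genes are those past the threshold, the 10 protein-coding genes per direction with the smallest p whose groups did not overlap in at least 1 experiment, the pathway members, up to 8 per combination of directions without overlap, and up to 4 per list. Not every gene so chosen is printed. Ngp and Lyz2 were named because limma called them. Whether replicate numbers pair the libraries is not settled. Deviations from the group means of same-numbered control and treated libraries correlated at -0.001, 0.106 and -0.014 in the AAV experiment. In the ribose experiment they correlated at 0.051, 0.385 and 0.250. Libraries of unlike number gave -0.107 to 0.103 in the AAV experiment and -0.334 to 0.114 in the ribose experiment. Alternatives were other pseudocounts, minimum values, scalings, weights, a robust prior, a replicate block and protein-coding genes only. Libraries were also left out, each alone and Vehicle replicate 2 together with Ribose replicate 2. A further 2 were added after the data were seen (length trend removed, copies added).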

Additional observations from a re-analysis of the deposited data

Results flagged for a closer look

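The difference of effects for Tkt was 1.40 on the log2(FPKM + 1) scale, and its test passed the threshold (limma adjusted p = 0.00114). The virus carries TKT, so a difference for this gene is part of the design and says nothing of the endogenous gene. It was higher in 3 of 3 AAV-TKT libraries and in 0 of 3 Ribose libraries.

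Genes outside the shared set were also counted. Of 951 genes that only the ribose table listed with a mean of at least 1 FPKM, 157 (16.5%) were higher in every Ribose library than in every Vehicle library and 8 (0.841%) were lower. These genes are missing from a table that holds none with a mean under 1 FPKM and had to reach that mean in the ribose table, so a gene could enter through its high group alone, and the counts cannot be compared with those of the shared genes. By type, 49 of 201 processed pseudogenes (24.4%) and 78 of 594 protein-coding genes (13.1%) were higher, with median differences of 0.85 and 0.42 on the log2 scale. The pseudogenes Gm15387 and Rpl38-ps2, described with Hmgb1 and Rpl38, are among the genes listed only there. The relative depth of the Ribose libraries, 0.761 to 0.903, was below that of the Vehicle libraries, 0.998 to 1.34, and its part in this count was not tested. Of the genes listed only in the AAV table, 6 (5.83%) were higher in every AAV-TKT library and 5 (4.85%) lower.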

How the results depend on the processing

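The difference for Tkt stayed between 1.23 and 1.48 and past the threshold in all 27 settings. The count of genes past it for the difference was 1 in all settings but these: 2 with a pseudocount of 0.1, 1 to 3 with each library left out (3 without Vehicle replicate 3 or Ribose replicate 2, 2 without Ribose replicate 3), and 12 without Vehicle replicate 2 and Ribose replicate 2 together, among them Thbs1, S100a9, Ltf, Lyz2 and Hmgb1. That pair held the high control and the low treated library for Thbs1, S100a9 and Ltf, so leaving it out widens their differences by construction. It also leaves 2 Vehicle and 2 Ribose libraries. Without that pair 3 genes passed for ribose and the correlation of effects was -0.088. It was -0.044 to 0.070 with each library left out. For ribose, 1 gene passed with equal totals and 0 to 1 with each library left out (1 without Vehicle replicate 2 or 3 or Ribose replicate 2 or 3). The count for transketolase, 3, was 1 with no minimum FPKM, median-of-ratios scaling or quantile normalization, 7 with equal totals or protein-coding genes only, 32 with weights per library, and 0 to 35 with each library left out (35 without AAV-GFP replicate 2, 1 without AAV-TKT replicate 1, 0 without AAV-GFP replicate 3).

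With a replicate block, 1 gene passed for the difference (Tkt, limma adjusted p = 0.0294) and 0 for transketolase. Whether the numbers pair the libraries is not settled. Adding copies reversed Hmgb1 (-0.0010) and Gm14288 (-0.10), and no other gene recomputed changed sign. Of 40 list differences, 19 kept their sign in every setting. Total reads are unknown.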

Other observations

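Further genes of metabolism outside the comparisons above pointed opposite ways. In one-carbon and purine metabolism, Mthfd1, which supplies formyl units for purines, measured 11.1, 10.4 and 14.7 FPKM in Ribose against 7.92, 7.79 and 9.48 in Vehicle, and 8.37, 8.34 and 8.25 FPKM in AAV-TKT against 9.20, 8.78 and 8.67 in AAV-GFP. Neither pair overlapped, and the difference was -0.55. Impdh1, the rate-limiting dehydrogenase of guanine nucleotide synthesis, measured 102.3, 115 and 102.02 FPKM in AAV-TKT against 92.7, 83.04 and 87.8 in AAV-GFP, while its ribose groups overlapped, and the difference was 0.33. Rrm2, the ribonucleotide reductase subunit of dividing cells, had a difference of -0.97 with ribose groups that overlapped. Of 29 measured genes of nucleotide and folate synthesis, 19 had a difference above 0 (58.6% of all shared genes).

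Among sterol genes, Lss, lanosterol synthase, measured 13.3, 11.7 and 14.8 FPKM in Ribose against 9.40, 11.2 and 9.98 in Vehicle, with overlapping AAV groups and a difference of -0.68. Cyp51, which acts next in the same route, was lower in both experiments without overlap, with effects of -0.19 and -0.51. Nqo1, a quinone reductase that uses NADPH, had a difference of 0.70, and Cdk4, a cell cycle kinase, one of 0.68. None of these genes passed limma's adjusted threshold.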
